A study of Homo sapiens with 30 samples.

Results

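The genes described here, 7 of the 39126 listed for whole cells, encode proteins that join the actin cytoskeleton to adhesion sites and membranes: SORBS2 and SORBS3 (sorbin adaptors), VCL (vinculin), ENAH, AFAP1, MYO18A and BIN1. They were taken by gene symbol from the whole-cell count table, by the same Ensembl identifier from the nuclear count table, and by symbol from 4 tables of skipped exons. All 7 were present and passed the filter on low counts in both count tables. The names were proposed with earlier results of these data known, and which values were used is not recorded, so the values below describe these libraries and give no support for a response of such genes as a group.

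Cells anchor to the matrix at focal adhesions and, in muscle, at costameres, where integrins in the membrane are tied to actin through talin and vinculin. SORBS2 and SORBS3 (vinexin) are scaffolds with SH3 domains that bind vinculin, and SORBS2 is found at the Z-discs of heart muscle. ENAH (Mena) speeds the growth of actin filaments, AFAP1 cross-links filaments and binds the kinase SRC, MYO18A is a myosin with little motor activity of its own, and BIN1 bends membranes and builds the T-tubules of muscle cells. QKI is an RNA-binding protein that controls exon choice and is known to bind sequences of the form ACUAA.

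RNA came from Hues6, a human embryonic stem cell line, labelled QKI KO or WT, on days 0, 4 and 8 (D0, D4, D8) on the way to cardiomyocytes, with 3 whole-cell poly(A) libraries in each of the 6 groups and 3 nuclear libraries of each genotype at D8. The differentiation began with CHIR, which activates WNT signalling, at 1.25 uM in KO and 1.5 uM in WT, with BMP4 at 1.5 ng/mL in both, so from D4 on the genotype and the CHIR dose cannot be told apart. A further 3 libraries of 293T cells, a human embryonic kidney line, treated with a QKI siRNA and 3 with a control siRNA enter only an exon table. The labels do not say whether the KO is 1 clone or whether the libraries of a group are separate cultures, so p-values cover the spread among these libraries, which may be technical.

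Whole-cell libraries held 40001076 to 89948185 counts and nuclear libraries 6549676 to 15030590. QKI itself was at 41.3, 41.3 and 35.5 CPM (counts scaled to a common total) in the KO libraries at D0, against 300, 294 and 286 CPM in WT. At D4 it was at 88.5, 68.2 and 78.0 CPM in KO, against 144, 139 and 156 CPM in WT. At D8 it was at 340, 329 and 337 CPM in the libraries labelled KO, against 368, 319 and 285 CPM in WT, with overlapping groups and a log2 fold change of 0.05 (SE 0.09, adjusted p = 0.66). In nuclear RNA it was higher in the libraries labelled KO, by 1.66 (SE 0.17) on the log2 scale. The D8 and nuclear groups are therefore named by their label below. The summed level of 8 cardiomyocyte markers was 34560 to 39930 CPM in the libraries labelled KO at D8, against 12470 to 21280 CPM in WT. At D8 the sum of 6 pluripotency markers was 469 to 566 CPM in the libraries labelled KO, against 1322 to 1744 CPM in WT, and that of 8 surface ectoderm and amnion markers was 266 to 354 CPM against 1094 to 1730 CPM in WT. At D8, 5 of 6 endothelial markers were tested. They summed to 617 to 673 CPM in the libraries labelled KO and 284 to 340 CPM in WT. In the same order, 6 endoderm markers summed to 280 to 423 CPM and 135 to 212 CPM in WT. The 8 smooth muscle and fibroblast markers summed to 1816 to 2084 CPM and 1072 to 1237 CPM in WT. Singly, 3 of 5 endothelial markers tested, 5 of 6 endoderm markers and 4 of 8 smooth muscle and fibroblast markers were called higher, and 0, 1 and 1 lower. Of 6 neural markers, the 3 tested summed to 9.34 to 10.5 CPM in the libraries labelled KO and 19.97 to 22.97 CPM in WT. Of the defining markers, PAX6, SOX1 and NEUROG2 did not pass the filter in whole cells. PECAM1 was not found by name among the listed genes, so its level is not known here. In bulk RNA, fewer cells of a type and less RNA per cell cannot be told apart.

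SORBS2 changed most over the days. It was at 15.2, 14.2 and 14.4 CPM in KO and 15.0, 15.4 and 13.4 CPM in WT at D0, at 8.84, 8.65 and 8.90 CPM in KO and 3.94, 3.99 and 3.62 CPM in WT at D4, and at 370, 405 and 405 CPM in the libraries labelled KO and 223, 198 and 144 CPM in WT at D8. The D4 libraries were the lowest and the D8 libraries the highest, with no overlap between days. D8 exceeded D4 by 5.48 (SE 0.12) on the log2 scale in the KO series and by 5.61 (SE 0.13) in WT. Of neighbours in the order of its 6 group means, the D0 groups alone overlapped. Those means spanned 102-fold, against 3.12-fold to 10.1-fold for the other members.

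MYO18A followed a similar course. Its level was 61.4, 46.0 and 51.1 CPM in KO and 41.6, 42.0 and 34.6 CPM in WT at D0. At D4 it was 35.9, 34.0 and 35.0 CPM in KO and 27.4, 21.8 and 23.0 CPM in WT, and at D8 136, 142 and 153 CPM in the libraries labelled KO and 94.8, 93.2 and 78.9 CPM in WT. Every KO library exceeded every WT library of its day. Of neighbours in the order of the 6 group means, the D0 WT and D4 KO groups were the ones that overlapped.

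SORBS3 and AFAP1 rose at each step. SORBS3 was at 29.3, 28.02 and 30.1 CPM in KO and 29.5, 39.1 and 29.4 CPM in WT at D0, at 62.7, 63.2 and 64.7 CPM in KO and 63.5, 62.4 and 64.2 CPM in WT at D4, and at 98.6, 94.4 and 92.5 CPM in the libraries labelled KO and 105, 113 and 114 CPM in WT at D8. AFAP1 was at 29.7, 25.4 and 27.3 CPM in KO and 28.1, 29.6 and 25.5 CPM in WT at D0, at 48.3, 51.1 and 50.2 CPM in KO and 48.5, 43.8 and 43.8 CPM in WT at D4, and at 59.9, 55.9 and 58.4 CPM in the libraries labelled KO and 78.7, 86.4 and 91.6 CPM in WT at D8. For both genes the genotypes overlapped at D0 and D4 and were apart at D8, where WT was higher. These D0 and D4 pairs were the neighbours in order that overlapped. The D8 over D4 difference of AFAP1 within the KO series, 0.22 (SE 0.07) on the log2 scale, was 0.06 (adjusted p = 0.51) when libraries were scaled by total counts.

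VCL and ENAH were highest in stem cells. VCL was at 837, 747 and 806 CPM in KO and 679, 682 and 643 CPM in WT at D0, at 287, 269 and 262 CPM in KO and 258, 240 and 216 CPM in WT at D4, and at 371, 372 and 347 CPM in the libraries labelled KO and 300, 300 and 279 CPM in WT at D8. ENAH was at 498, 471 and 464 CPM in KO and 471, 454 and 432 CPM in WT at D0, at 128, 111 and 116 CPM in KO and 183, 177 and 177 CPM in WT at D4, and at 97.9, 84.0 and 75.99 CPM in the libraries labelled KO and 221, 211 and 220 CPM in WT at D8. For VCL the D8 WT and D4 KO groups overlapped as neighbours in order, and for ENAH the D0 groups. ENAH fell again between D4 and D8 in KO, by 0.46 (SE 0.07) on the log2 scale, and rose by 0.28 (SE 0.07) in WT.

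BIN1 peaked at D4. It was at 30.8, 29.6 and 26.5 CPM in KO and 25.5, 27.6 and 24.7 CPM in WT at D0, at 251, 265 and 267 CPM in KO and 143, 127 and 140 CPM in WT at D4, and at 58.8, 55.1 and 53.4 CPM in the libraries labelled KO and 53.1, 59.8 and 62.0 CPM in WT at D8. The D4 groups stood above all others and apart from each other, while the genotypes overlapped at D0 and at D8. All 7 genes passed the test in each of the 4 comparisons between successive days, in which 82.6% (D4 against D0 in KO), 81.0% (D4 against D0 in WT), 75.0% (D8 against D4 in KO) and 68.8% (D8 against D4 in WT) of all genes passed it.

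**Figure D1:**
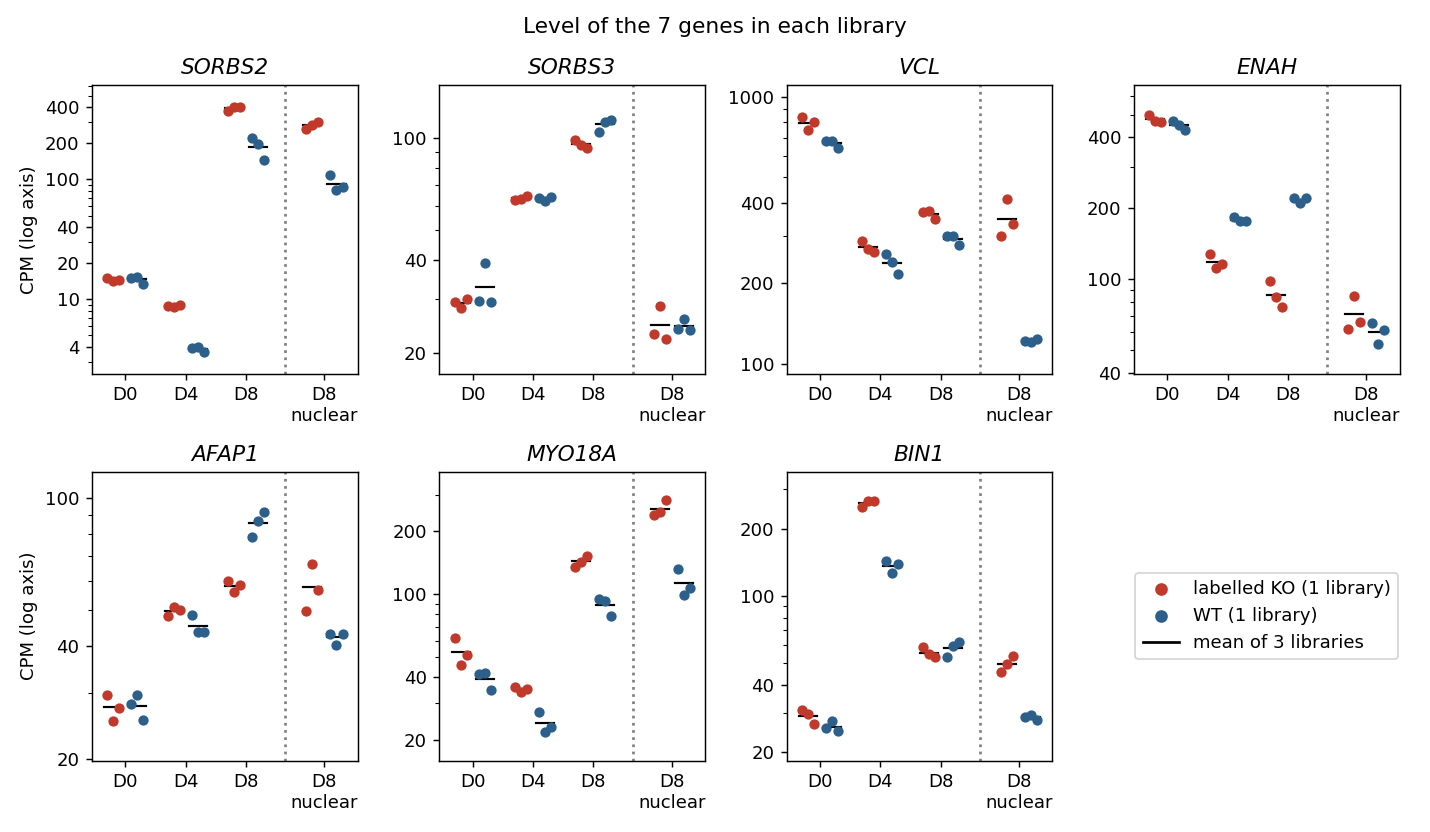
Level of each gene in every library, in CPM on log axes that differ between panels, with libraries labelled KO in red, WT in blue and the mean of 3 libraries as a line; nuclear libraries, right of the dotted line, were scaled on their own. SORBS2 lies at 8.65 to 8.90 CPM (KO) and 3.62 to 3.99 CPM (WT) at D4 and above 140 CPM in all whole-cell D8 libraries, while BIN1 peaks at D4.

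Before differentiation, 2 of the 7 genes differed between KO and WT, where 42.3% of all genes did (21.4% higher and 20.9% lower in KO). MYO18A was 1.34-fold higher in KO (log2 0.42, SE 0.10, adjusted p = 0.0022) and VCL 1.19-fold higher (log2 0.25, SE 0.07, adjusted p = 0.0042), each with no overlap of the groups. BIN1 (log2 0.16, SE 0.07) and SORBS3 (log2 -0.16, SE 0.08) did not pass. Leaving out a single library gave a call for BIN1 (KO replicate 3, adjusted p = 0.033) and for SORBS3 (WT replicate 1, adjusted p = 0.038, or WT replicate 3, adjusted p = 0.036). SORBS2, ENAH and AFAP1 differed by -0.01 (SE 0.11), 0.08 (SE 0.07) and -0.01 (SE 0.07). Markers also moved at D0: the cardiomyocyte sum was 2.66-fold that of WT at 15.9 to 17.4 CPM in KO (2 of 8 markers higher), the smooth muscle and fibroblast sum 1.83-fold (3 of 8 higher) and the endoderm sum 5.57-fold at 5.71 to 6.33 CPM in KO (3 of 6 higher). Their part in the D0 differences was not tested.

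At D4, 5 genes differed, where 28.4% of all genes did (16.3% higher and 12.0% lower in KO). SORBS2 was 2.28-fold higher in KO (log2 1.19, SE 0.13, adjusted p = 6.5e-07), BIN1 1.91-fold higher (log2 0.94, SE 0.07, adjusted p = 3e-09) and MYO18A 1.45-fold higher (log2 0.54, SE 0.11). ENAH was lower, at 0.664 of WT (log2 -0.59, SE 0.07). VCL was 1.15-fold higher (adjusted p = 0.032), a call that was lost with RLE size factors (adjusted p = 0.062) and without WT replicate 2 or 3 or KO replicate 1 or 2 (adjusted p from 0.059 to 0.18). AFAP1 (log2 0.14, SE 0.07) and SORBS3 (log2 0.00, SE 0.08) did not pass. In the same libraries the endoderm markers summed to 2.6-fold their WT level (5 of 6 higher), the endothelial markers to 1.89-fold (4 of 5 tested higher) and the cardiomyocyte markers to 1.37-fold (4 of 8 higher). The pluripotency markers summed to 0.788 of WT (4 of 6 lower), and the part of these markers in the D4 differences was not tested.

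At D8, 6 genes differed, where 55.6% of all genes did (29.4% higher and 26.2% lower). SORBS2 was 2.09-fold higher in the libraries labelled KO (log2 1.06, SE 0.10), MYO18A 1.62-fold (log2 0.69, SE 0.10) and VCL 1.24-fold (log2 0.31, SE 0.07; 0.18 when scaled by total counts). ENAH was lower, at 0.395 of WT (log2 -1.34, SE 0.07, adjusted p = 8e-12), and so was AFAP1, at 0.679 of WT (log2 -0.56, SE 0.07). SORBS3 was lower by 0.21 on the log2 scale (adjusted p = 0.023; -0.35 when scaled by total counts). That SORBS3 call was lost without WT replicate 3 or 4 or KO replicate 2 or 4 (adjusted p from 0.065 to 0.079) and with the replicate number as a block (adjusted p = 0.068). KO replicate 1 and WT replicate 3 have no same-numbered partner at D8, so the block takes them out of this comparison. BIN1 did not pass (log2 -0.06, SE 0.07), but was called lower when scaled by total counts (log2 -0.20, adjusted p = 0.040).

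The summed cardiomyocyte markers were 2.24-fold higher in the libraries labelled KO at D8, with 7 of 8 called higher. Within WT at D8 those sums were 21280, 17320 and 12470 CPM in replicates 2, 3 and 4, and SORBS2 was at 223, 198 and 144 CPM in the same libraries. The summed pluripotency markers stood at 0.336 of WT at D8, and those of surface ectoderm and amnion at 0.208, with 5 of 6 and 8 of 8 called lower. The part of these markers in the D8 differences of SORBS2, MYO18A, VCL, ENAH and AFAP1 was not tested.

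The KO effects of successive days were also compared directly, as interactions. Between D0 and D4 the effect moved up for SORBS2 (by 1.19, SE 0.17) and BIN1 (by 0.78, SE 0.10) and down for ENAH (by -0.67, SE 0.10) on the log2 scale, and 39.1% of all genes passed this test. Between D4 and D8 it moved down for BIN1 (by -1.0, SE 0.10), ENAH (by -0.75, SE 0.10) and AFAP1 (by -0.69, SE 0.10), and 41.5% of all genes passed. The D4 and D8 effects on SORBS2 were not called different (-0.13, SE 0.17), except without WT replicate 4 of D8 (-0.29, adjusted p = 0.044).

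Nuclear RNA of D8 cells was measured for the same 7 genes. SORBS2 was at 264, 287 and 299 CPM in the libraries labelled KO, against 108, 81.8 and 86.2 CPM in WT. VCL was at 301, 414 and 332 CPM in the libraries labelled KO, against 122, 121 and 123 CPM in WT, and MYO18A at 240, 247 and 284 CPM against 132, 99.5 and 108 CPM in WT. These groups did not overlap. BIN1 was at 45.5, 49.3 and 53.7 CPM in the libraries labelled KO against 28.7, 29.2 and 27.7 CPM in WT. AFAP1 was at 49.6, 66.5 and 56.5 CPM against 43.2, 40.4 and 43.3 CPM in WT. ENAH was at 61.7, 85.1 and 66.0 CPM in the libraries labelled KO and 65.0, 53.2 and 60.8 CPM in WT, and SORBS3 at 23.2, 28.5 and 22.3 CPM and 24.0, 25.9 and 23.7 CPM, both with overlap.

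Of the 7, 5 were called higher in nuclear RNA and none lower, where 64.0% of all genes were called (31.2% higher and 32.8% lower). The log2 fold changes were 1.62 (SE 0.16) for SORBS2, 1.52 (SE 0.16) for VCL, 1.18 (SE 0.15) for MYO18A, 0.80 (SE 0.13) for BIN1 and 0.45 (SE 0.13) for AFAP1. The median of all genes was -0.27 in this comparison and -0.72 when libraries were scaled by total counts. Scaled that way, the values were 1.18 for SORBS2, 1.05 for VCL, 0.74 for MYO18A and 0.34 for BIN1, all still called, while AFAP1 turned to -0.02 (adjusted p = 0.89) and SORBS3 was called lower (-0.45, adjusted p = 0.0036). The AFAP1 call was also lost without WT replicate 2 (adjusted p = 0.062). ENAH, which fell in whole cells at D8, was at 0.25 (SE 0.14, adjusted p = 0.12) in nuclei, -0.21 when scaled by total counts, and called higher without KO replicate 1 (0.44, adjusted p = 0.021). Whole-cell and nuclear tables were normalised separately, so no test was made between them. In the nuclear libraries labelled KO the cardiomyocyte markers summed to 3.78-fold their WT level (8 of 8 higher), the endoderm markers to 15.5-fold (5 of 6 higher) and the endothelial markers to 5.69-fold (1 of 5 tested higher and 4 lower). The pluripotency markers summed to 0.38 of WT (5 of 6 lower) and those of surface ectoderm and amnion to 0.731 (5 of 8 lower). The part of these markers in the nuclear differences was not tested.

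**Figure D2:**
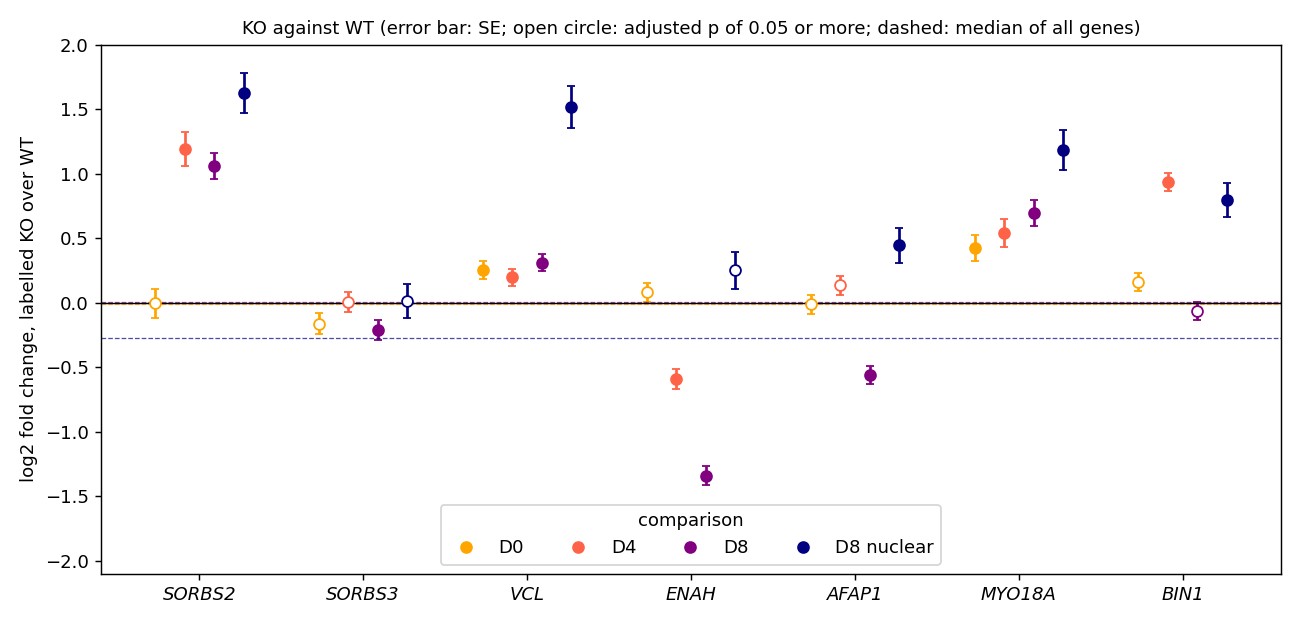
Log2 fold change of the libraries labelled KO over WT for each gene in 4 comparisons, with bars of 1 SE; filled circles passed the test, open circles did not, and dashed lines give the median of all genes. ENAH reaches -1.34 at D8 and 0.25 in nuclei, and VCL 0.31 and 1.52.

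Among the 10545 other genes with a mean of at least 10 CPM, those whose log2 levels ran most like each member over the 18 whole-cell libraries were picked by Pearson's r. For SORBS2 they were ARHGAP31 (r = 0.997) and FAM210B (r = 0.992), for MYO18A TEX2 (0.990) and NUDT4 (0.984), and for VCL B4GALT5 (0.989) and VKORC1L1 (0.988). For SORBS3 they were EFNA1 (0.989) and EPB41L4A (0.988), for AFAP1 SEPT8 (0.993) and MSX2 (0.987), for ENAH CHML (0.992) and PRKX (0.991), and for BIN1 CCKBR (0.993) and ATP7B (0.992). Within the set, SORBS2 and MYO18A ran together (r = 0.971), as did SORBS3 and AFAP1 (r = 0.971), and VCL ran against BIN1 (r = -0.835). The libraries fall into 6 groups, so these values mostly reflect 6 group means.

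Further genes of the same cell structures were followed in 4 lists. Of 12 close relatives of the members, 3 were higher and 2 lower in KO at D0, 2 and 3 at D4, and 6 and 4 at D8, with medians of -0.05, -0.06 and 0.25 on the log2 scale, against -0.01, 0.00 and 0.01 for all genes. Those counts are 41.7%, 41.7% and 83.3% of the list, against 42.3%, 28.4% and 55.6% of all genes called. VASP, a relative of ENAH, averaged 160 ± 10.8 CPM in KO and 119 ± 6.17 CPM in WT at D0 (SD, n = 3 each). CTNNA2, a catenin related to vinculin, was lower at D8, at 8.25 ± 0.94 CPM in the libraries labelled KO and 37.2 ± 1.15 CPM in WT. At D4, AFAP1L2 was higher in KO (33.8 ± 10.1 CPM against 21.1 ± 5.43 CPM in WT), a call lost without KO replicate 1 (0.45 in place of 0.68 on the log2 scale, adjusted p = 0.056). EVL was lower at D4 (69.3 ± 1.81 CPM in KO, 80.6 ± 2.07 CPM in WT), a call lost when scaled by total counts (adjusted p = 0.15).

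Of 25 genes of integrin adhesions and costameres, 6 were higher and 2 lower in KO at D0, 7 and 2 at D4, and 12 and 6 at D8, with medians of 0.09, 0.01 and 0.16. These are 32.0%, 36.0% and 72.0% of the list, beside the same 42.3%, 28.4% and 55.6% of all genes. ZYX (zyxin) was higher at D0 (137 ± 10.2 CPM in KO, 95.7 ± 10.1 CPM in WT) and LPP, a zyxin relative, lower (82.3 ± 4.71 CPM in KO, 114.5 ± 13.2 CPM in WT). At D4, ITGA5, the fibronectin receptor subunit, was at 515 ± 34.4 CPM in KO and 316 ± 5.12 CPM in WT, and TLN2 (a talin) at 106 ± 2.58 CPM and 65.2 ± 0.297 CPM. At D8, XIRP1, an actin-binding protein of heart muscle, was at 660 ± 65.4 CPM in the libraries labelled KO and 255 ± 55.0 CPM in WT. TNS3 (a tensin) was lower, at 51.2 ± 5.70 CPM in the libraries labelled KO and 116 ± 14.7 CPM in WT.

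Of 20 actin crosslinkers and nonmuscle myosins, 10 were higher and 4 lower in KO at D0, 1 and 6 at D4, and 8 and 8 at D8, with medians of 0.21, -0.10 and 0.03. These are 70%, 35.0% and 80.0% of the list, beside 42.3%, 28.4% and 55.6% of all genes. FLNC, the filamin of muscle, was at 61.2 ± 8.44 CPM in KO and 26.3 ± 1.01 CPM in WT at D0 (log2 1.22, SE 0.10), and DBN1 (drebrin) at 226 ± 24.7 CPM and 124 ± 7.31 CPM. At D4, MYL9, a myosin light chain, was lower (128 ± 6.90 CPM in KO, 188 ± 10.5 CPM in WT), as was TMSB4X, which binds actin monomers (524 ± 8.26 CPM in KO, 731 ± 48.5 CPM in WT). At D8, the nonmuscle heavy chains MYH9 (543 ± 74.5 CPM in the libraries labelled KO, 1185 ± 44.0 CPM in WT) and MYH14 (6.08 ± 1.08 CPM in the libraries labelled KO, 24.6 ± 3.70 CPM in WT) were lower.

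Of 14 genes of membrane tubulation and dynamins, 9 were higher and 0 lower in KO at D0, 2 and 2 at D4, and 8 and 3 at D8, with medians of 0.23, 0.01 and 0.18. These are 64.3%, 28.6% and 78.6% of the list, beside 42.3%, 28.4% and 55.6% of all genes. PACSIN3, which like BIN1 bends membranes, was at 34.4 ± 1.93 CPM in KO and 22.1 ± 0.412 CPM in WT at D0, and SH3GL1 (an endophilin) at 99.8 ± 7.83 CPM and 65.2 ± 4.43 CPM. At D4, MTM1, a lipid phosphatase, was lower (9.22 ± 0.537 CPM in KO, 13.96 ± 0.606 CPM in WT). SNX9 was called higher at D4 (log2 0.18, SE 0.07, adjusted p = 0.044), a call lost with RLE factors, without the filter, in DESeq2 and with the replicate block. It was also lost without WT replicate 1 or 3, or any 1 of the KO replicates 1, 2 and 3. At D8, JPH2, which ties T-tubules to the sarcoplasmic reticulum, was at 272 ± 27.6 CPM in the libraries labelled KO and 120 ± 25.5 CPM in WT, and CAV2 (caveolin) at 14.1 ± 0.116 CPM and 6.25 ± 0.811 CPM. In nuclear RNA, 7 of 12 relatives, 22 of 26 adhesion genes, 13 of 20 actin genes and 10 of 15 tubulation genes were called higher, and 1, 2, 2 and 0 lower. These are 66.7%, 92.3%, 75.0% and 66.7% of the lists called in either direction, against 64.0% of all genes (31.2% higher and 32.8% lower). Relatives and tubulation genes were near that share of calls in either direction. In each list the calls were mostly higher. The medians of these lists were 0.75, 0.80, 0.60 and 0.63, against -0.27 for all genes. XIRP1 was at 474 ± 30.3 CPM in the nuclear libraries labelled KO and 82.6 ± 4.02 CPM in WT, and CTNNA3, another vinculin relative, at 233 ± 15.5 CPM and 62.9 ± 14.2 CPM. JPH1, a relative of JPH2, was at 47.7 ± 3.25 CPM in the nuclear libraries labelled KO and 14.7 ± 1.63 CPM in WT.

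Exon use was read from the 4 tables of skipped exons. An inclusion level there is the share of junction reads, scaled for length, that hold the exon between 1 given pair of neighbours. At a level of 1, no read joined those neighbours directly. It is not a share of all transcripts of the gene. Each table sets a second arm of 3 libraries against a first arm of 3 and names neither. QKI junction reads of the second arm, scaled for depth, came to 6.78% of those of the first arm in the D0 table, to 33.8% in the D4 table, to 80.2% in the D8 table and to 20% in that of 293T. An event (an exon with 1 pair of neighbours) was called where the authors' FDR was under 0.05, the arms differed by 0.1 or more, and both arms averaged 10 or more junction reads a library. Of the members' events with that depth, 11 of 74 were called at D0 (9 higher and 2 lower in the second arm), where 2.37% of all events were (1.06% higher, 1.31% lower). At D4, 7 of 51 were called (6 higher, 1 lower), against 1.1% of all events (0.558% higher, 0.539% lower). At D8 it was 29 of 121 (20 higher, 9 lower), against 2.23% of all (1.21% higher, 1.02% lower). In 293T it was 4 of 28 (3 higher, 1 lower), against 0.451% of all (0.275% higher, 0.175% lower). Events of one locus share reads, and nothing is read from these shares, since the exon calls may have entered the choice of the genes. Just inside the threshold, the SORBS2 93-nt exon at D0 differed by 0.108 with 1 pair of neighbours, and by 0.183 with the pair described below. Just outside it, the SORBS2 157-nt exon at D8 differed by 0.087 with the pair that stands for it. With another pair that exon was called.

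The calls fell on 19 exons of 6 genes, 12 to 642 nt long, of which 14 have a length that is a multiple of 3. Those of AFAP1 (252 nt), BIN1 (93 and 129 nt) and MYO18A (45 nt) were called in all 4 tables. No VCL exon was called. The 19 include overlapping SORBS2 forms, of 89 and 93 nt and of 56 and 157 nt. How many of all exons have a length that is a multiple of 3 was not counted. The sequences of the exons described most below are given so that what each transcript gains or loses can be read. They are those of GENCODE 29 transcripts on GRCh38, 5′ to 3′, matched to the hg19 exons by length and by the lengths of both flanking introns, which gave a single place for each.
AFAP1 252-nt exon: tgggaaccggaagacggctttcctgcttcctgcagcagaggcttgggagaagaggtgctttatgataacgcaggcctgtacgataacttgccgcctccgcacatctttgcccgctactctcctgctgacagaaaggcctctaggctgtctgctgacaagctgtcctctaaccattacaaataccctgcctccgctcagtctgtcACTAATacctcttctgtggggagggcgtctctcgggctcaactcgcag
BIN1 93-nt exon: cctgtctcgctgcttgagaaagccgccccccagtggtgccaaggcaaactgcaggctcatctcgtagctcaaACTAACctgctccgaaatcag
BIN1 129-nt exon: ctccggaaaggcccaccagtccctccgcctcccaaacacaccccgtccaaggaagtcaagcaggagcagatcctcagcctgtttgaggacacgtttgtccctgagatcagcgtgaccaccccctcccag
MYO18A 45-nt exon: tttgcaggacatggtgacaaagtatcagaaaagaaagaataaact
ENAH 63-nt exon: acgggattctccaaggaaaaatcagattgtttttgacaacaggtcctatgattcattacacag
Capitals mark ACTAAC or ACTAAT, the DNA letters of the known QKI element, searched on both strands. No other motif was searched. Of 19 exons that matched, 3 held it in the sense strand: AFAP1 252 nt, BIN1 93 nt and SORBS2 642 nt. Of annotated internal exons within 5 nt of those lengths, 3.0%, 1.59% and 7.5% held it. On the opposite strand, the SORBS2 642-nt exon was the only one to hold it. A match describes these letters alone. The introns were not searched.

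AFAP1 gained its 252-nt exon in the second arm of all 4 tables. The exon (chr4:7783103-7783354, hg19, minus strand, fully coding in 2 of 3 matched transcripts) had inclusion levels of 0.677, 0.862 and 0.871 in the second arm, against 0.189, 0.114 and 0 in the first arm at D0. At D4 they were 1, 0.625 and 0.75 in the second arm, against 0.25, 0.2 and 0.018 in the first arm, and at D8 0.94, 0.938 and 0.956 against 0.087, 0.14 and 0.111. In 293T they were 0.36, 0.7 and 0.455 against 0.059, 0.077 and 0.077, from means of 14 and 13 reads per library. The arms did not overlap in any table, and the differences of second minus first arm were 0.70, 0.64, 0.83 and 0.43.

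BIN1 gained sequence in the second arm at all 17 of its called events, of 67 with enough reads over the 4 tables. Those 17 are repeats of 4 exons with different neighbours or in different tables. The 93-nt exon (chr2:127825739-127825831) is one of brain isoforms and lies in the membrane-bending BAR domain. Its levels were 0.664, 0.663 and 0.608 in the second arm, against 0.301, 0.276 and 0.282 in the first arm at D0, and 0.99, 0.99 and 1 against 0.602, 0.627 and 0.591 at D4. At D8 they were 0.986, 0.942 and 0.975 against 0.609, 0.584 and 0.559, and in 293T 0.445, 0.286 and 0.327 against 0.081, 0.071 and 0.068. Both arms were higher at D4 and D8 than at D0, and the differences were 0.36, 0.39, 0.38 and 0.28.

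Downstream in BIN1 lie exons of the region that binds clathrin and its adaptor AP2 in brain isoforms. The 129-nt exon (chr2:127815049-127815177) had mean levels of 0.598 ± 0.021 in the second arm, against 0.383 ± 0.007 for the first arm at D0, 0.728 ± 0.027 and 0.495 ± 0.050 at D4, 0.805 ± 0.055 and 0.556 ± 0.045 at D8, and 0.811 ± 0.084 and 0.507 ± 0.140 in 293T (SD, n = 3 each). The 293T difference of 0.30 had an FDR of 0.0241 in the authors' deposited table. Of 2 exons of 108 nt, identical at 33 bases, the downstream one (chr2:127809831-127809938) averaged 0.770 ± 0.027 in the second arm, against 0.475 ± 0.079 for the first arm at D4, and 0.408 ± 0.032 and 0.114 ± 0.030 at D8. At D0 it was at 0.097 ± 0.029 and 0.037 ± 0.047, with overlapping arms. The upstream one (chr2:127811481-127811588) averaged 0.253 ± 0.023 and 0.050 ± 0.051 at D0, 0.318 ± 0.056 and 0.070 ± 0.042 at D4, and 0.259 ± 0.087 and 0.090 ± 0.024 at D8. In 293T the downstream one had 0 inclusion reads beside 59 skipping reads in the second arm, and a count of 0 allows up to 5.08% of those reads.

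The 45-nt exon of BIN1 that muscle uses for T-tubule formation (chr2:127818172-127818216), chosen after its values were seen, was nearly absent. At D8 it had 0 inclusion reads in the second arm beside 770 skipping reads, which allows up to 0.390%, and levels of 0.004, 0 and 0.001 in the first arm. Its mean was 0.003 in the second arm, against 0 for the first arm at D4, and 0.006 and 0 at D0. Intervals and floors here cover counting error only.

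MYO18A ran the other way at its 45-nt exon (chr17:27412622-27412666, minus strand). The levels were 0.135, 0.113 and 0.094 in the second arm, against 0.858, 0.844 and 0.89 in the first arm at D0, and 0.048, 0.061 and 0.054 against 0.968, 0.908 and 0.739 at D4. At D8 they were 0.382, 0.438 and 0.406 against 0.93, 0.911 and 0.899. In 293T the second arm had 0 inclusion reads beside 73 skipping reads, which allows up to 4.11%, and the first arm had levels of 0.139, 0.076 and 0.277. The exon was lower in the second arm in all 4 tables, by 0.75, 0.82, 0.51 and 0.16 on the 0 to 1 scale. The 293T value was -0.108 without library 3 of the first arm.

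A 12-nt exon of MYO18A (chr17:27443462-27443473) was instead higher in the second arm, at 0.776, 0.818 and 0.822 against 0.565, 0.492 and 0.621 in the first at D0 and 0.658, 0.57 and 0.397 against 0.35, 0.297 and 0.355 at D8. At D4 it was at 0.641, 0.862 and 0.527 against 0.641, 0.598 and 0.598, with overlap at means of 13.7 and 16.0 reads per library. A 75-nt exon (chr17:27452911-27452985) was called at D8 with 1 pair of neighbours, at 0.943, 1 and 0.958 against 0.68, 0.566 and 0.817. With another pair at D0, its mean level was 0.002 in the second arm, against 0 for the first arm.

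ENAH differed at D8. Its 63-nt exon (chr1:225692693-225692755) is the one known as 11a of epithelial cells, with levels of 0.732, 0.704 and 0.721 in the second arm, against 0.852, 0.851 and 0.849 in the first arm at D8. At D0 it was at 0.828, 0.787 and 0.812 against 0.821, 0.802 and 0.81, and at D4 at 0.824, 0.814 and 0.84 against 0.85, 0.835 and 0.853, both with overlap. The D8 difference was -0.13, with means of 520 and 1834 reads per library in the second and first arm, and an FDR of 3.32e-10 in the authors' deposited table. In 293T it was mostly skipped in both arms, at 0.08, 0.136 and 0.142 against 0.086, 0.062 and 0.047.

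VCL hardly used its alternative exon. The 204-nt exon (chr10:75871667-75871870, plus strand), which turns vinculin into the metavinculin of muscle and was chosen after its values were seen, had levels of 0.02, 0.016 and 0.013 in the second arm, against 0.01, 0.006 and 0.005 in the first arm at D8. These arms did not overlap, and the FDR was 0.0542 in the authors' deposited table. At D0 the levels were 0.004, 0.007 and 0.006 in the second arm, against 0.018, 0.014 and 0.011 in the first arm, from means of 1693 and 1352 reads per library. At D4 and in 293T all levels were at or under 0.01.

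**Figure D3:**
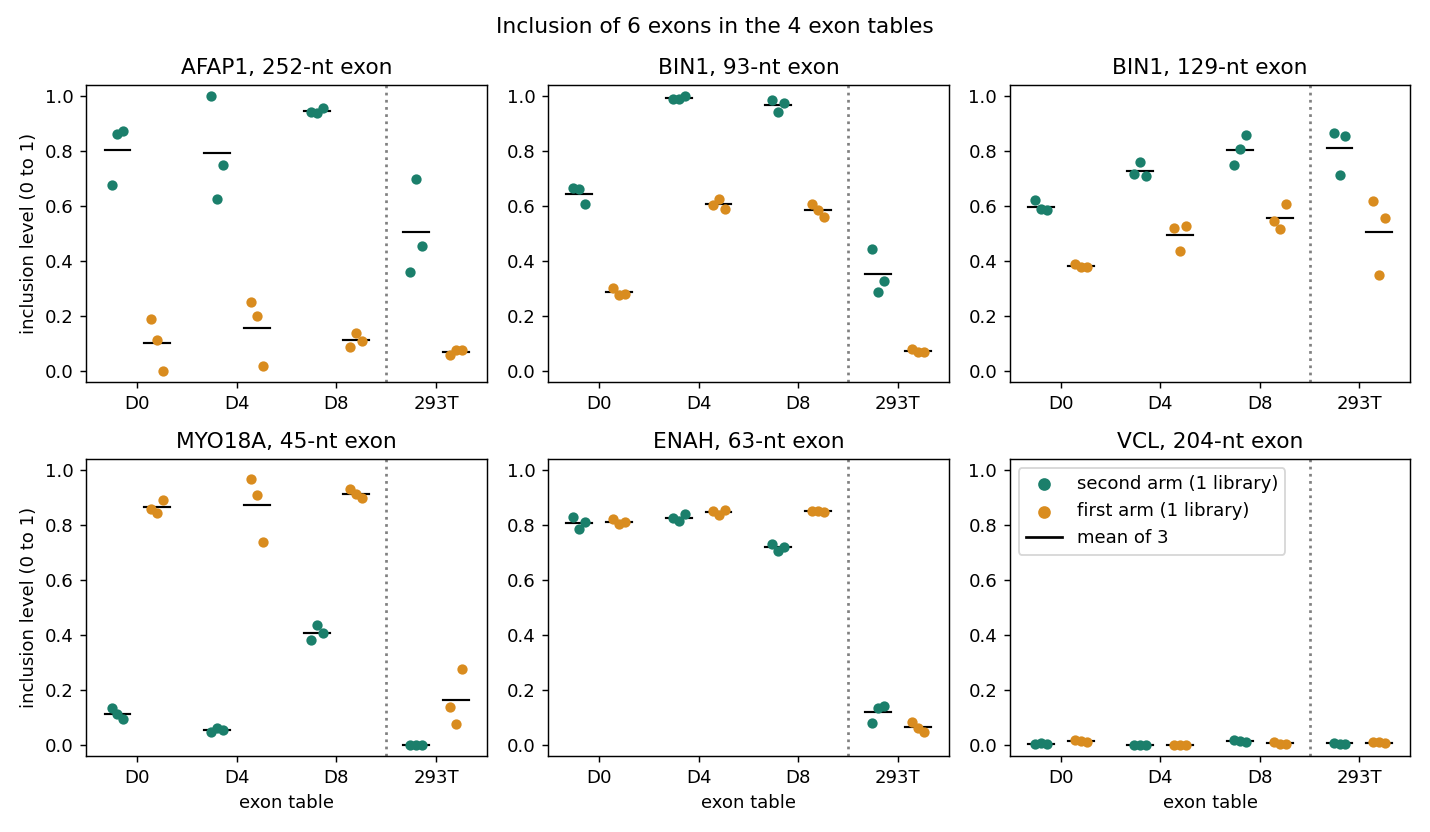
Inclusion level (0 to 1) of 6 exons in each library of the second arm (green) and the first arm (orange) of the 4 exon tables, with the mean of 3 as a line; the 293T table stands right of the dotted line. AFAP1 252 nt and BIN1 93 and 129 nt lie higher in the second arm in all 4 tables, MYO18A 45 nt lower, ENAH 63 nt parts at D8, and VCL 204 nt stays at or under 0.02.

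SORBS2 had the most called events at D8, 17 of 44, with 10 higher and 7 lower in the second arm, on 8 of 14 exons. At D0, 4 of 19 events were called, at D4 0 of 3 at a gene level of 3.62 to 8.90 CPM, and the 293T table lists none. A 642-nt exon (chr4:186598151-186598792) was at 0.001, 0 and 0.001 in the second arm, against 0.487, 0.456 and 0.425 in the first arm at D8, from means of 1073 and 722 reads per library. At D0 it was at 0, 0.012 and 0 in the second arm and 0 in all 3 libraries of the first. Inclusion above 0.012 was thus seen in the first arm at D8 alone, among the tables with enough reads.

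Upstream in SORBS2, a 93-nt exon (chr4:186605908-186606000) was at 0.943, 0.95 and 0.952 in the second arm, against 0.258, 0.262 and 0.326 in the first arm at D8, and 0.925, 0.9 and 0.827 against 0.753, 0.764 and 0.585 at D0. An 89-nt form that shares all its bases (chr4:186605908-186605996) was at 0.991, 0.994 and 0.993 against 0.36, 0.351 and 0.428 at D8. A 50-nt exon (chr4:186611716-186611765) changed direction with its neighbours: next to the 93-nt exon it was at 0.228, 0.232 and 0.216 in the second arm, against 0.783, 0.78 and 0.709 in the first arm, and next to the exon that starts at 186599950 at 0.562, 0.611 and 0.606 against 0.343, 0.35 and 0.368. Exons of 157 and 56 nt farther upstream overlap and also varied with their neighbours. With the pair that stands for each by the number of tables and reads, neither was called at D8: the 157-nt exon was at 0.11, 0.098 and 0.115 in the second arm and 0.024, 0.011 and 0.026 in the first arm, and the 56-nt exon, the other way, at 0.049, 0.04 and 0.041 in the second arm and 0.134, 0.084 and 0.094 in the first arm. Next to the exon that starts at 186599950 both were called, the 157-nt exon at 0.283, 0.264 and 0.305 against 0.017, 0.007 and 0.02, and the 56-nt exon at 0.305, 0.274 and 0.318 against 0.024, 0.032 and 0.028. The 50-, 56-, 89-, 157- and 642-nt exons were fully coding in none of their matched transcripts. Of their lengths, 642 alone is a multiple of 3.

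Nearer the 3′ end of SORBS2, an exon of 159 nt (chr4:186560031-186560189) averaged 0.982 ± 0.005 in the second arm, against 0.942 ± 0.011 for the first arm with the pair of neighbours that had the most reads at D8. With another pair it was called, at 0.988, 0.981 and 0.989 against 0.88, 0.905 and 0.845. An exon of 84 nt was not called with the pair that had the most reads at D8, at 0.675, 0.725 and 0.72 against 0.784, 0.728 and 0.777. That difference was -0.056, with an FDR of 0.148 in the authors' deposited table. The 84-nt exon was called higher in the second arm with 1 other pair of neighbours (0.973, 0.964 and 0.976 against 0.83, 0.841 and 0.757). With a further pair it was called lower (0.078, 0.109 and 0.15 against 0.21, 0.385 and 0.328). The 45-nt exon of SORBS2 (chr4:186572938-186572982) was called at D0, at 0.792, 0.918 and 0.877 against 0.986, 1 and 0.969. At D8 it was at 0.988, 0.981 and 0.978 against 0.995, 0.998 and 0.993, a difference of -0.01.

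**Figure D4:**
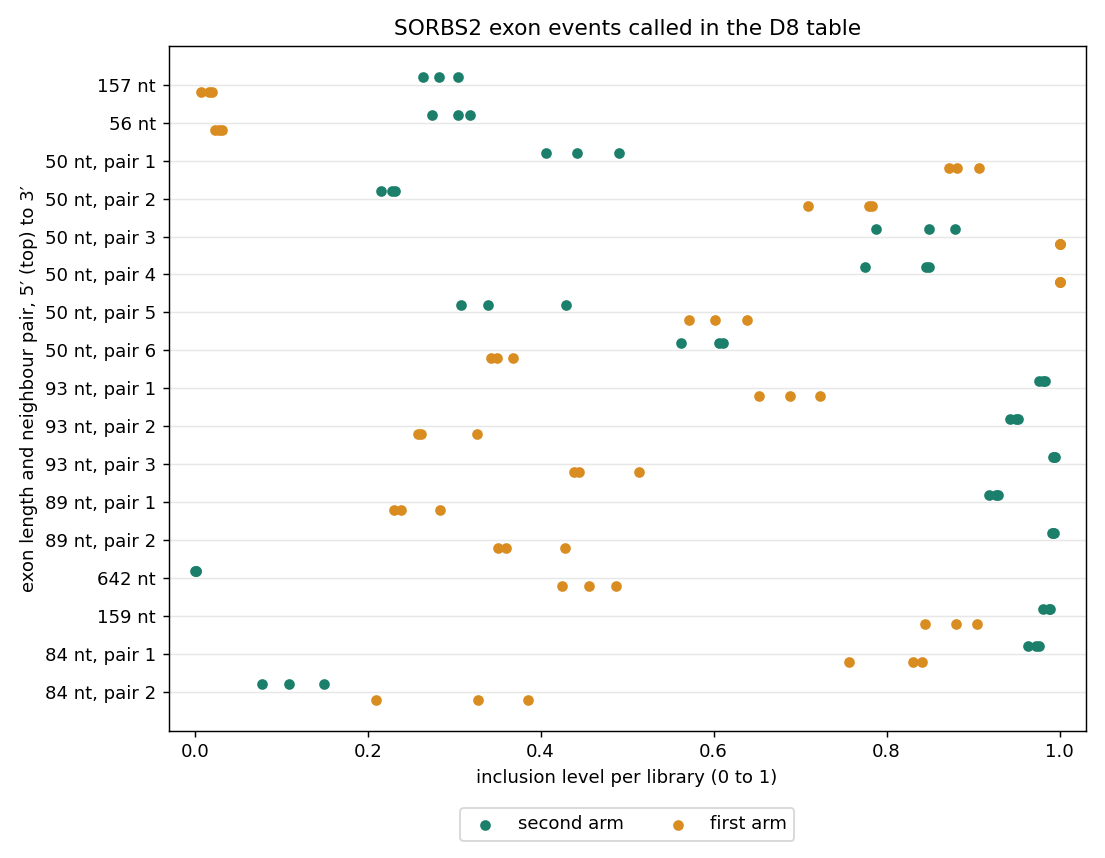
Inclusion level per library of the 17 SORBS2 events called at D8, from the 5′ end (top) to the 3′ end, with the second arm in green and the first in orange; events of one exon with different neighbour pairs have a row each. The 642-nt exon is at most 0.001 in the second arm, and the rows of the 50-nt exon differ in direction.

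SORBS3 had a single called event in 36 with enough reads. Its 53-nt exon (chr8:22424174-22424226, plus strand) was at 1, 1 and 1 in the second arm, against 0.809, 0.835 and 0.922 in the first arm at D8, with means of 10.3 and 23.0 reads per library and an FDR of 0.0259 in the authors' deposited table. With the pair of neighbours that had the most reads it was at 1, 0.989 and 1 against 1, 1 and 0.996.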

How the data were processed

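The authors deposited raw read counts per gene for 18 whole-cell and 6 nuclear libraries, and 4 skipped-exon tables in rMATS format. The authors' exon tables hold junction reads, inclusion levels, p-values with FDR, and a difference score of first minus second arm, recomputed within 0.0005 and given here as second minus first. The submitters' processing notes list the build hg19 and the tools STAR, featureCounts, cutadapt, UMI-tools and DESeq; their versions and the strand setting of the counting were not given in the sources used here. Reads of AP3M1 (opposite VCL), AFAP1-AS1 (opposite AFAP1) and antisense RNAs of SORBS2 and SORBS3 can therefore not be told apart from the members' where they overlap. Those of TIAF1, on the same strand as MYO18A, could not be told apart under any strand setting.

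Counts were fitted in edgeR 4.0.16 (filterByExpr, TMM, quasi-likelihood test), once for the 18 whole-cell libraries (21761 genes) and once for the 6 nuclear ones (30481 genes). A call is a Benjamini-Hochberg adjusted p under 0.05 over all genes of a comparison, two-sided, and adjusted p-values of levels are from edgeR unless another tool is named. Levels are CPM over TMM-scaled totals. Exon differences are descriptions, and FDR values are the authors'. Exons were matched to GENCODE 29 transcripts by exon and flanking intron lengths.

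Members and gene lists were chosen with earlier results of these data known. Named were all members, each exon called in at least 1 table (for several neighbour pairs, the one held in most tables and then with most reads), and the 2 genes most like each member. From each list and comparison, up to 2 called genes of at least 10 CPM with the largest change were picked. These list genes are given for KO against WT in whole cells, and only in part for nuclear RNA. A list gene that this rule names is not reported here. NRAP did not pass the filter in whole cells. CAV3, CAVIN1 and CAVIN4 were not tested there. Of the 17 tubulation genes, 15 were found by name and 14 were tested, so a missing name does not mean a low level. Alternatives were RLE factors, total counts, no filter, DESeq2 1.42.0, fits on 6 libraries, the replicate number as a block, single libraries left out, stricter exon thresholds, summed reads, and group means for likeness.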

Additional observations from a re-analysis of the deposited data

Results flagged for a closer look

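The KO effect (log2 of KO over WT) of 4 members differed between successive days by edgeR's test of the difference itself, with 3 libraries in each group. From D0 to D4 it moved by 1.19 for SORBS2 (adjusted p = 1.5e-05), 0.78 for BIN1 (adjusted p = 4.3e-06) and -0.67 for ENAH (adjusted p = 3.2e-05). From D4 to D8 it moved by -1.0 for BIN1 (adjusted p = 1.1e-07), -0.75 for ENAH (adjusted p = 9.8e-06) and -0.69 for AFAP1 (adjusted p = 1.6e-05). Of all genes, 39.1% and 41.5% passed these tests, near the share of the members, 3 of 7 in each. BIN1 stood 1.91-fold higher in KO at D4, with overlapping genotypes at D0 and D8. The CHIR dose also differed between the genotypes from D4 on, and cannot be told apart from the KO.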

How the results depend on the processing

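No count of called genes (both directions together), of called members or of their called exons moved by more than 1.5 times under an alternative. Some values changed sign. At D0, AFAP1 was at 0.002 with RLE factors and in DESeq2 (-0.070 to 0.044 with single libraries left out), and SORBS2 at 0.008 with RLE factors and in DESeq2 and 0.001 without the filter (-0.062 to 0.035). SORBS3 at D4 was at -0.022 with RLE factors and in DESeq2 (-0.010 to 0.014). With total counts, QKI at D8 was at -0.080 (-0.035 to 0.153 with single libraries left out), the D4 minus D0 effect of VCL at 0.040 (-0.122 to 0.004), the D8 minus D4 effects of MYO18A and VCL at -0.056 and -0.094, and nuclear ENAH, AFAP1 and SORBS3 at -0.210, -0.017 and -0.454. Leaving out single libraries gave -0.286 to 0.016 for the D8 minus D4 effect of SORBS2 and -0.105 to 0.152 for nuclear SORBS3. Of these, nuclear AFAP1 alone was called in the main design; the cause was not tested.

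Total counts moved the median of all genes by over 0.1 in 6 comparisons: to -0.122 at D8 (0.006 with TMM), 0.332 for D4 over D0 in KO (0.118) and 0.192 in WT (0.075), -0.218 for D8 over D4 in KO (-0.056), -0.243 for the D8 minus D4 effect (-0.035), and -0.721 in nuclear RNA (-0.271), where DESeq2 gave -0.136 and RLE factors -0.135. The share of calls that were higher was 57.6% at D4 (73.8% with total counts), 52.9% at D8 (37.6%), 51.1% and 47.2% for the differences of KO effects (62.9% and 24.9%) and 48.7% in nuclear RNA (25.6%, and 67.8% in DESeq2). Genes lower at D4 then numbered 1545. Genes higher numbered 2355 for the D8 minus D4 effect and 5192 in nuclear RNA, where 15074 were lower, against 4413 lower in DESeq2. Same-numbered libraries did not deviate together (correlations of -0.276 to 0.400), so the numbers were not taken as pairs. With the replicate block, 9153 genes were called at D0 (9209 without), 6172 at D4 (6171), 11136 at D8 (12097), and 18250 of the nuclear table (19515), and 5 members in place of 6 at D8. In whole cells at D8, KO replicate 1 and WT replicate 3 have no same-numbered partner, so the block compares fewer libraries there.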
